A study of Homo sapiens with 6 samples.

Results

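The replication-dependent histone genes of the human genome were followed across 6 RNA-sequencing libraries of Huh7 cells, a line derived from a hepatocellular carcinoma. All transcript rows whose gene symbol begins with HIST1H, HIST2H, HIST3H or HIST4H were taken, which gave 82 transcript rows under 73 gene symbols, out of 27689 symbols in all, and the values of a symbol's rows were added up. Values are FPKM, a read-fragment density that corrects for transcript length and library depth. The 3 control libraries, labelled NC, and the 3 libraries labelled NACER_ASO, in which the long non-coding RNA NACER was targeted for knockdown, came in sets numbered 2, 5 and 6, with 1 library of each group in each set. The labels do not say what a set is, what the control libraries received, or whether the libraries came from separate cultures; the p-values below therefore speak only of how much these libraries varied, which may be technical in part. The level of NACER itself was not analysed here. Of the markers for the labelled cell type, 13 of 13 hepatocyte genes were at 1 FPKM or more in all 6 libraries. Below 1 FPKM in all of them were 4 of 4 endothelial, 3 of 5 immune (not CD68 and CD14), 2 of 6 stromal (not COL1A1, COL1A2, COL3A1 and PDGFRB) and 0 of 4 bile duct genes (KRT7, KRT19, EPCAM, SOX9). The summed level was 0.455 to 1.09 FPKM for the endothelial, 40.6 to 68.2 for the immune, 2.01 to 42.2 for the stromal and 118 to 261 for the bile duct genes, with no marker at 0 in all libraries, and the part of these genes in the results was not tested.

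Replication-dependent histone genes are transcribed in S phase, when newly copied DNA has to be packed into nucleosomes, and they sit in clusters in the genome. H2A, H2B, H3 and H4 form the core of the nucleosome, and H1 binds the linker DNA at its entry and exit. Their mRNAs are the only known metazoan mRNAs that normally end in a conserved stem-loop instead of a poly(A) tail; the stem-loop is bound by SLBP. Some of the genes are known also to give polyadenylated mRNAs, and the library kit used here selects RNA with a poly(A) tail.

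The stem-loop could be read in the GENCODE 29 transcripts matched to these genes. All 73 genes matched a transcript. In 33 of these genes a matched transcript held a stem of 6 base pairs, G:U pairs allowed, around a loop of 4 bases with the histone pattern. Among other protein-coding transcripts, counted singly and not by gene, 187 of 83047 held it (0.225%). Many of the matched transcripts are annotated only to the end of the coding sequence, so the lack of a match says only that the letters are not in that model. The windows below, stem-loop in capitals, show the form of genes that lead the results, from H2A, H2B and H4.
HIST2H2AA3: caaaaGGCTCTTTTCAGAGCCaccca
HIST1H2BD, single-exon model: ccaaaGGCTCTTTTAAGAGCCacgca
HIST2H2BE: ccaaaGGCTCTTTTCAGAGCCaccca
HIST1H4B: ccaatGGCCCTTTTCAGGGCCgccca
HIST2H4A: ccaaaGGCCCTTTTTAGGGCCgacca
The stem separated the types: all 8 H4 genes with a stem-loop carried GGCCC on its 5′ side, in 5 genes as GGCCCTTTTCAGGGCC and in 3 as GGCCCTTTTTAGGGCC, whereas the H2A, H2B and H3 genes carried GGCTC. In 18 of the 33 genes the annotated transcript ran on for 200 bases or more from the start of the stem-loop to its end, and in 12 of these a poly(A) signal hexamer, AATAAA or ATTAAA, began within the last 40 bases. The FPKM values belong to RefSeq models, which can be much shorter than the GENCODE models. HIST1H2AC has 1654 bases in GENCODE and 546 in RefSeq, whereas HIST2H2BE has 2194 and 2223. The ends of such GENCODE models are shown with the hexamer in capitals, beside that of the spliced HIST1H2BD model, in which no stem-loop was found.
HIST1H2BD, spliced model: taattAATAAAatctgcggagaattgtaaa
HIST1H2AC: agcctggcatgaggtAATAAAaggtaatgc
HIST2H2BE: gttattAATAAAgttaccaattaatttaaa

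By genome position (hg19, as given with the deposited values), 56 of the 73 genes belonged to HIST1 on chromosome 6, in 3 stretches at chr6:25726291-26285727 (35 genes), chr6:27100095-27115341 (5 genes) and chr6:27775257-27861669 (16 genes). Another 12 belonged to HIST2 at chr1:149754245-149859466, and HIST2H2BA, a non-coding transcript, lay at chr1:120906034-120914842. HIST3 held 3 genes at chr1:228612546-228646259, and HIST4H4 lay alone at chr12:14923654-14924065. By type there were 6 H1, 18 H2A, 20 H2B, 14 H3 and 15 H4 genes. HIST2H2BC and HIST1H2APS1, counted among these, are also listed only as non-coding transcripts. Copies of the same sequence share reads: HIST2H2AA3 and HIST2H2AA4, HIST2H3A and HIST2H3C, and HIST2H4A and HIST2H4B are each listed at the same 2 loci, and nearly all of the value was given to HIST2H2AA3, HIST2H3C and HIST2H4A. Each of these pairs can be read only as a pair, and near-identical coding sequences make single values of other members uncertain too.

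Of the 73 genes, 56 reached at least 1 FPKM in at least 3 libraries and entered the tests, and 22 reached it in all 6. The tested genes were 3 H1, 13 H2A, 18 H2B, 11 H3 and 11 H4 genes. For 27 of the 56, both set 6 libraries were below 1 FPKM, so these genes entered through sets 2 and 5, and a set 6 value could only be low in them; none entered through only NC or only NACER_ASO libraries. The other 17 never exceeded 5.78 FPKM, a value HIST1H2AK (an H2A gene) had in NC set 2. The next highest of them by mean were HIST2H2BA, HIST1H3G, HIST1H1T (the testis H1) and HIST2H2AB, whose highest values were 3.11, 1.87, 2.89 and 2.49 FPKM. HIST1H2AA and HIST3H3 were listed at 0 in all 6 libraries.

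The summed level of the 73 genes differed by set and, in set 2, by group. In NC the sum was 1481, 1255 and 187 FPKM in sets 2, 5 and 6, and in NACER_ASO it was 695, 1157 and 191 FPKM. The NC set 2 library was thus the highest and set 6 was low in both groups. As a share of all FPKM in the library these sums were 0.338%, 0.280% and 0.0441% in NC and 0.168%, 0.252% and 0.0441% in NACER_ASO. In set 2 the highest symbol was HIST2H2AA3, an H2A gene whose value is the sum over 2 loci, with 16.6% of the NC sum and 14.5% of the NACER_ASO sum. Per locus it had 124 and 122 FPKM in NC set 2 and 50.3 and 50.4 FPKM in NACER_ASO set 2, below HIST1H3C, an H3 gene with a single locus, at 139 and 68.1 FPKM. In sets 5 and 6 it was HIST1H2BK, an H2B gene, with 40.1% and 46.3% of the sum in NC and NACER_ASO of set 5 and 27.4% and 28.2% in set 6. In bulk RNA, fewer cells in S phase and less histone RNA per cell cannot be told apart.

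**Figure D1:**
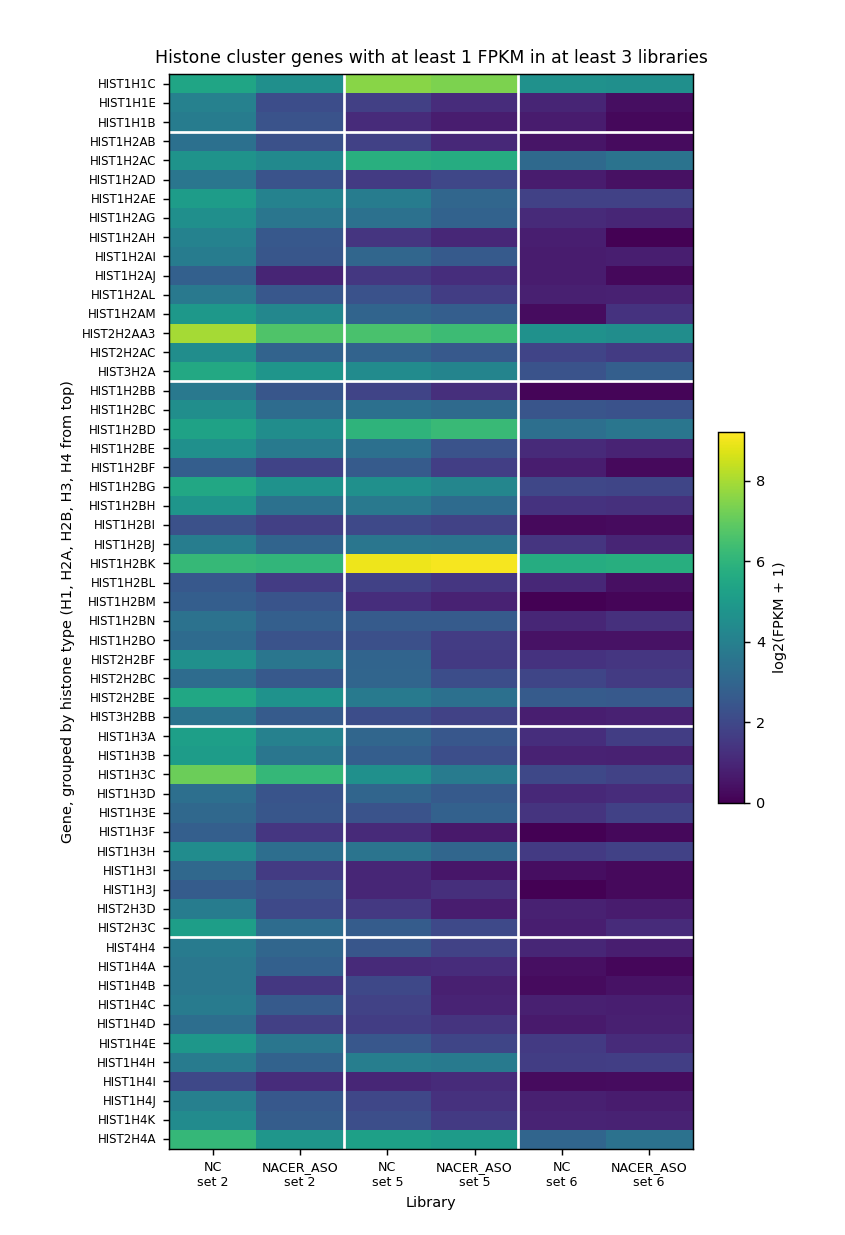
Level of each of the 56 tested histone genes (rows, grouped by type and ordered by position) in the 6 libraries (columns), as log2(FPKM + 1) by colour. The NC set 2 column is the brightest for most genes, the set 6 columns are dark, and HIST1H2BK and HIST1H1C are brightest in set 5.

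The first comparison, NACER_ASO against NC, asked whether the knockdown changed histone mRNA levels. None of the 56 genes was called higher or lower by limma on log2(FPKM + 1) at an adjusted p under 0.05 (0% of the 13576 genes tested were called), and the smallest adjusted p of a histone gene was 0.999994. Without adjustment, 0 histone genes and 20 of all genes had p under 0.05. The median difference of the histone genes was -0.56 (log2), against 0.041 over all tested genes, and 0 of the 56 histone genes had their 3 NC and 3 NACER_ASO values apart without overlap (1.57% of all genes). When set was added as a block, the count of called histone genes was again 0 (0% of all genes), the smallest adjusted p was 0.297, and 31 of the 56 had an unadjusted p under 0.05, all lower in NACER_ASO, against 3.57% of all genes that were lower at that level. A difference that differs between sets could not be tested, since each set held 1 library of each group.

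Within sets the direction was uneven. In set 2, the NACER_ASO value was below the NC value in 56 of 56 tested histone genes (40.8% of all genes), with a median difference of -1.02 (log2). In set 5 it was below in 48 of 56 (44.9% of all genes), with a median of -0.40, and in set 6 in 31 of 56 (37.1% of all genes), with a median of -0.035. The medians over all genes were 0.051, 0.015 and 0.059. Over all 73 genes without the filter, 68, 56 and 38 were lower in sets 2, 5 and 6, and 3, 14 and 29 were higher. In 29 of the 56 the NACER_ASO value was lower in all 3 sets (11.0% of all genes) and in 0 it was higher in all 3 (27.2% of all genes). The NC set 2 library held the highest of the 6 values in 51 of the 56 (18.9% of all genes). In that set the NC value was from 1.08 to 6.55 times the NACER_ASO value, with a median of 2.25.

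**Figure D2:**
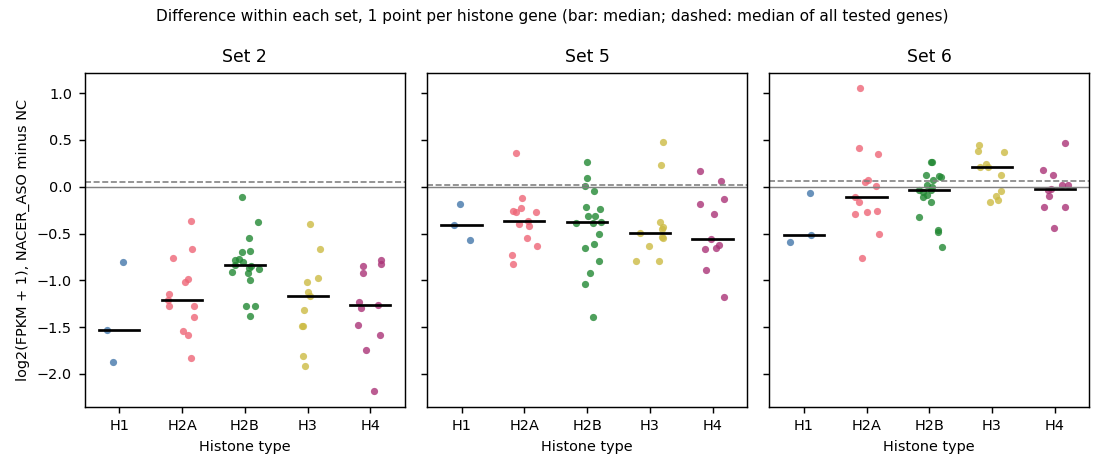
Difference in log2(FPKM + 1), NACER_ASO minus NC, for each tested histone gene by type in sets 2, 5 and 6; black bars are the medians of a type and the dashed line is the median of all tested genes. All 56 points lie below 0 in set 2, 48 in set 5 and 31 in set 6.

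The group median depended on which libraries entered. Without NC set 2 it was 0.14, without NACER_ASO set 6 it was 0.0094, without NACER_ASO set 2 it was -0.97 and without NC set 6 it was -1.29, in fits that leave the sets unbalanced. With the block and both set 2 libraries left out it was -0.25, with 45 of the 56 below 0. With the block and both set 6 libraries left out, 9 histone genes passed the threshold and were lower in NACER_ASO (0.39% of all genes): HIST1H2AB, HIST1H2AE, HIST1H2BE, HIST1H2BF, HIST1H3C, HIST1H4B, HIST1H4C, HIST2H2BF and HIST2H3D. That fit held only sets 2 and 5, with 1 library of each group in each, so these calls rest on few libraries. With set 2 or set 5 left out, 0 passed.

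Among the H1 genes, HIST1H1C, which encodes the linker histone H1.2, was the most abundant, with 41.1, 190 and 24.0 FPKM in NC sets 2, 5 and 6 and 23.2, 167 and 23.0 FPKM in NACER_ASO. It was highest in set 5 in both groups. HIST1H1E (H1.4) had 15.6, 2.33 and 0.915 FPKM in NC and 3.52, 1.24 and 0.275 FPKM in NACER_ASO, and HIST1H1B (H1.5) had 13.7, 1.20 and 0.639 FPKM in NC and 4.08, 0.662 and 0.147 FPKM in NACER_ASO. Both were highest in NC set 2 and lower in NACER_ASO in each set, as HIST1H1C was. The difference between groups was -1.01 ± 0.88 (log2, SE, n = 3 and 3) for HIST1H1E and -0.35 ± 1.02 for HIST1H1C, neither past the threshold.

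The H2A genes, which encode the partner of H2B in the core, summed to 502, 227 and 47.3 FPKM in NC sets 2, 5 and 6 and to 224, 185 and 47.7 FPKM in NACER_ASO. HIST2H2AA3 alone had 246, 94.3 and 24.3 FPKM in NC and 101, 78.9 and 21.6 FPKM in NACER_ASO. It was lower in NACER_ASO in each set, by more than 2-fold only in set 2, where the ratio of NC to NACER_ASO was 2.44. HIST1H2AC took a different course, with 25.5, 55.5 and 7.95 FPKM in NC and 19.5, 50.9 and 10.4 FPKM in NACER_ASO, highest in set 5. HIST1H2AJ had the smallest p of the H2A genes in the group fit, with 5.99, 1.80 and 0.617 FPKM in NC and 0.959, 1.31 and 0.137 FPKM in NACER_ASO, a difference of -0.87 ± 0.59 (log2, SE). HIST1H2AM had the largest difference toward NACER_ASO among the H2A genes in set 6, at 0.234 FPKM in NC and 1.56 FPKM in NACER_ASO, both low values.

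The H2B genes summed to 381, 685 and 86.0 FPKM in NC sets 2, 5 and 6 and to 224, 694 and 87.8 FPKM in NACER_ASO, so H2B and H1 were the types with their highest sum in set 5. HIST1H2BK had 71.3, 503 and 51.3 FPKM in NC and 66.0, 536 and 53.9 FPKM in NACER_ASO, a difference between groups of 0.018 ± 1.17 (log2, SE) with a 95% interval of -2.80 to 2.84; its sign turned under median-of-ratios scaling. HIST1H2BD had 38.0, 62.1 and 9.32 FPKM in NC and 21.8, 75.1 and 11.4 FPKM in NACER_ASO. The other 16 tested H2B genes had their highest value in NC set 2; of these, HIST2H2BE had 43.9, 12.8 and 5.23 FPKM in NC and 25.1, 9.56 and 4.87 FPKM in NACER_ASO. HIST2H2BC, listed only as a non-coding transcript, had the smallest p of the H2B genes in the group fit, with a difference of -0.61 ± 0.44.

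The H3 genes summed to 314, 70.5 and 11.6 FPKM in NC sets 2, 5 and 6 and to 133, 47.7 and 14.4 FPKM in NACER_ASO. HIST1H3C led them with 139, 23.6 and 2.95 FPKM in NC and 68.1, 13.2 and 2.52 FPKM in NACER_ASO. Both groups were highest in set 2 and lowest in set 6, and NC was the higher of the pair in each set. The group difference was -0.66 ± 1.54 (log2, SE), or -0.66 ± 0.16 with the block, with an adjusted p of 0.322. HIST2H3D had the smallest p of the H3 genes in the fit without the block, with 13.4, 1.87 and 0.781 FPKM in NC and 3.12, 0.655 and 0.620 FPKM in NACER_ASO. In set 6 the direction was mixed, with 7 of 11 H3 genes higher in NACER_ASO, such as HIST1H3E at 1.62 and 2.41 FPKM.

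The H4 genes, nearly all of which encode the same protein, summed to 210, 77.1 and 16.1 FPKM in NC sets 2, 5 and 6 and to 80.5, 60.2 and 17.8 FPKM in NACER_ASO. In set 2 the NC sum was 2.61 times the NACER_ASO sum, the highest ratio of the 5 types, beside 2.29 for H1, 2.24 for H2A, 1.70 for H2B and 2.37 for H3. HIST2H4A was the most abundant, with 69.0, 36.9 and 6.96 FPKM in NC and 27.4, 32.3 and 10.04 FPKM in NACER_ASO, so its order of the groups turned in set 6. HIST1H4B had the largest difference of the members between groups, with 11.7, 3.002 and 0.216 FPKM in NC and 1.78, 0.763 and 0.376 FPKM in NACER_ASO, or -1.06 ± 0.84 (log2, SE), short of the threshold. HIST4H4, the gene outside the main clusters, had 13.1, 4.49 and 0.987 FPKM in NC and 7.17, 2.48 and 0.712 FPKM in NACER_ASO. By cluster, the NC sum in set 2 was 2.03 times the NACER_ASO sum for HIST1, 2.46 times for HIST2, 1.76 times for HIST3 and 1.82 times for HIST4H4; no test was made between types or clusters.

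More genes were called between sets than between groups, among the histone genes and among all genes. The main group fit had no set term, whereas the set contrasts had set and group, so these counts come from unlike fits. In set 6 against set 2, 55 of the 56 histone genes were lower (27.3% of all genes were called lower and 20.9% higher, by limma with set and group as terms at an adjusted p under 0.05) and 0 were higher. The median difference was -2.39 (log2), against -0.039 over all genes. Both set 2 values lay above both set 6 values in 55 of the 56 (38.7% of all genes). This count is not independent of the filter: 27 of the 56 entered through sets 2 and 5, and a set 6 value could only be low in them. HIST1H3C, an H3 gene, had the largest difference, -4.72 ± 0.20 (log2, SE, 2 libraries a set, adjusted p = 0.00037). HIST2H2AA3 differed by -2.73 ± 0.26 (adjusted p = 0.0013), HIST2H2BE by -2.50 ± 0.17 (adjusted p = 0.00066) and HIST4H4 by -2.54 ± 0.16 (adjusted p = 0.00064). HIST1H2BK was at the other end with -0.38 ± 0.08 (adjusted p = 0.011), and HIST1H1C, at -0.38 ± 0.18 (adjusted p = 0.12), was the 1 gene not called. With no filter on low values, 59 of 71 histone genes were called lower (24.9% of all genes). The set contrasts share libraries with each other, and what distinguishes the sets is not given in the labels.

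In set 5 against set 2, the histone genes split. Lower in set 5 were 34 of the 56 (46.8% of all genes), and 4 were higher (23.5% of all genes): HIST1H2BK, HIST1H1C, HIST1H2BD and HIST1H2AC. The 34 held 2 of 3 H1, 10 of 13 H2A, 8 of 18 H2B, 8 of 11 H3 and 6 of 11 H4 genes. Of these counts, those of H2B and H4 are near the share of all genes. HIST1H2BK was higher by 2.90 ± 0.08 (log2, SE, adjusted p = 6.3e-06), HIST1H1C by 2.49 ± 0.18 (adjusted p = 9.1e-05), HIST1H2BD by 1.22 ± 0.26 (adjusted p = 0.0064) and HIST1H2AC by 1.22 ± 0.17 (adjusted p = 0.0011). HIST1H3C differed the other way by -2.40 ± 0.20 (adjusted p = 0.00016) and HIST1H1B by -2.18 ± 0.28 (adjusted p = 0.00087). Of the 18 genes not called, HIST2H4A lay at -0.33 ± 0.38, a value that became 0.0034 under median-of-ratios scaling, and HIST1H4H at 0.51 ± 0.23.

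In set 6 against set 5, 45 of the 56 were lower (23.8% of all genes, with 40.6% called higher) and 0 were higher, with a median of -1.23 (log2) against 0.16 over all genes. With no filter on low values, 37 of 71 were lower (16.5% of all genes), with a median of -1.0003. The largest differences were those of the genes that were high in set 5: HIST1H2BK at -3.28 ± 0.08 (adjusted p = 4.1e-06), HIST1H1C at -2.87 ± 0.18 (adjusted p = 6.3e-05) and HIST1H2BD at -2.62 ± 0.26 (adjusted p = 0.00034). HIST1H3C differed by -2.32 ± 0.20 (adjusted p = 0.00021). The 11 genes not called were HIST1H1B, HIST1H1E, HIST1H2AJ, HIST1H3F, HIST1H3I, HIST1H4B, HIST1H4C, HIST1H4D, HIST1H4K, HIST2H2BF and HIST2H3D, none above 6.84 FPKM in either set.

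The scale of the set contrasts depends on how libraries are levelled. Median-of-ratios scaling moved the median of all genes from -0.26 to 0.038 in set 5 against set 2, from -0.039 to 0.13 in set 6 against set 2 and from 0.16 to 0.022 in set 6 against set 5, and the share of all calls that were higher went from 33.4% to 52.9%, from 43.4% to 62.5% and from 63.1% to 52.8%. Relative to the median of all genes, the median histone difference was -0.83, -2.35 and -1.39 as deposited and -0.85, -2.37 and -1.37 after scaling. After scaling, 30, 54 and 49 histone genes were lower (32.8%, 20.5% and 30.3% of all genes) and 5, 0 and 0 were higher (36.9%, 34.2% and 34.0% of all genes).

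The histone transcript models were also split into spliced and single-exon ones. Of the 82 transcript rows, 5 are spliced, with a genomic span longer than the transcript (HIST1H2BD, HIST1H2BK, HIST1H3D, HIST2H2BA and HIST2H2BF), and 77 are single-exon; the HIST1H3D model overlaps HIST1H2AD, so reads there may be shared. The spliced rows summed to 83.1, 570 and 60.1 FPKM in NC sets 2, 5 and 6 and to 83.3, 614 and 65.4 FPKM in NACER_ASO, so that NACER_ASO was 1.00, 1.08 and 1.09 times NC. The single-exon rows summed to 1398, 685 and 127 FPKM in NC and to 611, 543 and 126 FPKM in NACER_ASO, so that NC was 2.29, 1.26 and 1.01 times NACER_ASO. Between sets, the spliced sum of set 5 was 7.11 times that of set 2, and the single-exon sum of set 5 was 0.611 times that of set 2. Without HIST1H1C and HIST1H2AC, which have single-exon models and were called higher in set 5, the single-exon ratio of set 5 to set 2 was 0.403. The spliced sum is mostly HIST1H2BK, and these ratios carry no test. Among the other spliced rows, HIST1H3D had 9.30, 7.02 and 1.07 FPKM in NC and 4.26, 5.16 and 1.26 FPKM in NACER_ASO. HIST2H2BA had 3.11, 0.432 and 0.0940 FPKM in NC and 1.38, 0.420 and 0.263 FPKM in NACER_ASO. Both were highest in NC set 2, as most single-exon rows were, while the spliced HIST2H2BF row did not exceed 1.58 FPKM.

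HIST1H2BD and HIST1H2BK are listed with both kinds of model, each pair starting at the same end of the gene. The spliced HIST1H2BD model, chr6:26158349-26171576 (hg19), whose poly(A) signal is shown above, had 14.4, 59.8 and 8.21 FPKM in NC sets 2, 5 and 6 and 16.3, 73.0 and 10.6 FPKM in NACER_ASO. NACER_ASO was the higher of the pair in each set, and set 5 was highest. The single-exon model, chr6:26158349-26158835, which carries the stem-loop shown above and whose matched transcript also holds AATAAA 27 bases from its end, had 23.6, 2.35 and 1.11 FPKM in NC and 5.46, 2.10 and 0.763 FPKM in NACER_ASO. Here NACER_ASO was the lower of the pair in each set, and set 2 was highest. For HIST1H2BK the spliced model, chr6:27106072-27114637, had 55.9, 502 and 50.8 FPKM in NC and 60.0, 534 and 53.2 FPKM in NACER_ASO. The single-exon model, chr6:27114140-27114637, had 15.4, 0.639 and 0.487 FPKM in NC and 6.03, 2.12 and 0.690 FPKM in NACER_ASO. It was highest in NC set 2, but unlike in HIST1H2BD, NACER_ASO was the lower of the pair only in set 2. In sets 5 and 6 it was the higher, at low values. Reads in the shared first part were divided between the models by the authors' estimate, so the split within a gene is less certain than its sum.

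**Figure D3:**
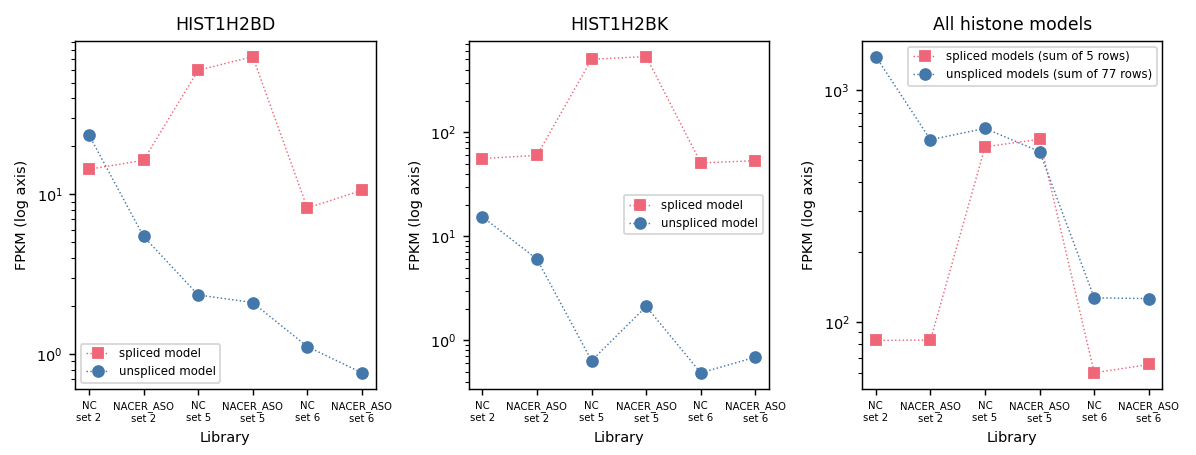
FPKM (log axis) of the spliced (squares) and single-exon (circles) models of HIST1H2BD and HIST1H2BK, and of all 5 spliced and 77 single-exon histone rows summed, in each library; dotted lines only join the values of 1 model. The spliced models of both genes and the spliced sum are highest in set 5, whereas the single-exon sum is highest in NC set 2, at 1398 FPKM.

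Promoter sequences from RefSeq (GRCh38.p14) were matched for 65 of the 73 genes, and the 250 bases before the annotated start were searched on both strands for the TATA motif TATAAA, the CCAAT box and the octamer ATTTGCAT; a TATAAA match can overlap its own match on the other strand, and the 3 motifs were counted separately. TATAAA was present in 66.2% of the histone promoters and 11.1% of all 27305 promoters, CCAAT in 84.6% and 33.0%, and ATTTGCAT in 26 of the 65 histone promoters and in 1.66% of all. The octamer was in 77.8% of H2B and 68.8% of H2A promoters, in 8.33% of H3 promoters and in 0% of H1 and H4 promoters. The 1 H3 match was in HIST1H3D, whose window (chr6:26199294-26199543) is also that of HIST1H2AD. Neighbouring H2A and H2B genes on opposite strands can share most of their windows, such as HIST1H2AC (chr6:26123922-26124171) and HIST1H2BC (chr6:26123927-26124176). A single site can thus be counted in more than 1 promoter, and the promoters are not separate observations. CCAAT was in 100% of H1, H2A, H2B and H3 promoters and in 23.1% of H4 promoters. The promoters of the genes with the largest differences up and down in set 5 against set 2 are shown with the matches in capitals, HIST1H2BK (chr6:27146859-27147108, minus strand), which holds all 3 motifs, and HIST1H3C (chr6:26045134-26045383, plus strand), which holds CCAAT alone.
HIST1H2BK: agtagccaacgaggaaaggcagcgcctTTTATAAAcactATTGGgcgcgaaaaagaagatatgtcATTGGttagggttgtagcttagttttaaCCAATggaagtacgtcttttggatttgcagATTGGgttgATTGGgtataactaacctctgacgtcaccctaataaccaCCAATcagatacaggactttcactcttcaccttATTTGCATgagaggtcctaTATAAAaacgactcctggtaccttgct
HIST1H3C: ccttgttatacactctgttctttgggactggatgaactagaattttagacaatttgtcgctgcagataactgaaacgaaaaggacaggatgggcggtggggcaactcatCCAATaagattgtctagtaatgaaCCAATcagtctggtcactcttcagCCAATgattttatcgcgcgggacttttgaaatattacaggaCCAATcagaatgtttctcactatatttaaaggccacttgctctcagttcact
A match is a description of these letters and not evidence that a factor binds.

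RNAs that normally have no poly(A) tail and are made from their own promoters were also highest in NC set 2. Of 12 such RNAs in the table, 9 were tested, and their sum, with the 3 others, was 3249, 179 and 179 FPKM in NC sets 2, 5 and 6 and 1014, 58.6 and 113 FPKM in NACER_ASO. RMRP, the RNA of RNase MRP, had 573, 25.7 and 19.4 FPKM in NC and 141, 8.66 and 6.47 FPKM in NACER_ASO, and RPPH1, the RNA of RNase P, had 562, 24.1 and 43.7 FPKM in NC and 172, 9.16 and 25.8 FPKM in NACER_ASO. Both were lower in NACER_ASO in each set. The NACER_ASO value was below NC in 9 of 9 in set 2 and in 8 of 9 in each of sets 5 and 6 (40.8%, 44.9% and 37.1% of all genes). Called lower were 9 of 9 in set 5 against set 2 and 9 of 9 in set 6 against set 2 (46.8% and 27.3% of all genes). In set 6 against set 5, where 45 histone genes were lower, 2 of the 9 were lower (RNU11, TERC) and 2 were higher (RPPH1, VTRNA1-3). Of all genes, 23.8% were lower and 40.6% higher there. Against NC, 0 of the 9 passed the threshold. The part of differing retention of RNA without a poly(A) tail in the histone values was not tested.

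Genes of S phase and DNA replication, which are normally active when histone mRNA is made, gave other counts between sets. Of 31 tested genes, 20 were higher and 5 lower in set 5 against set 2 (23.5% and 46.8% of all genes), 6 were higher and 6 lower in set 6 against set 2 (20.9% and 27.3%), and 4 were higher and 18 lower in set 6 against set 5 (40.6% and 23.8%). Their medians in these contrasts were 0.55, -0.034 and -0.49 (log2), beside -1.09, -2.39 and -1.23 for the histone genes. CCNE2, which encodes cyclin E2, had 11.7, 2.60 and 6.30 FPKM in NC sets 2, 5 and 6 and 12.6, 2.87 and 6.40 FPKM in NACER_ASO, lower in set 6 than in set 2 by -0.84 ± 0.10 (log2, SE, adjusted p = 0.0019). GINS2, a subunit of the replicative helicase, was lower by -0.53 ± 0.07 (adjusted p = 0.0030), and CDK2, the partner of cyclin E, was higher by 0.55 ± 0.07 (adjusted p = 0.0024). In NACER_ASO against NC, 0 of the 31 passed the threshold, and PCNA, E2F1 and FEN1 had the smallest p.

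**Figure D4:**
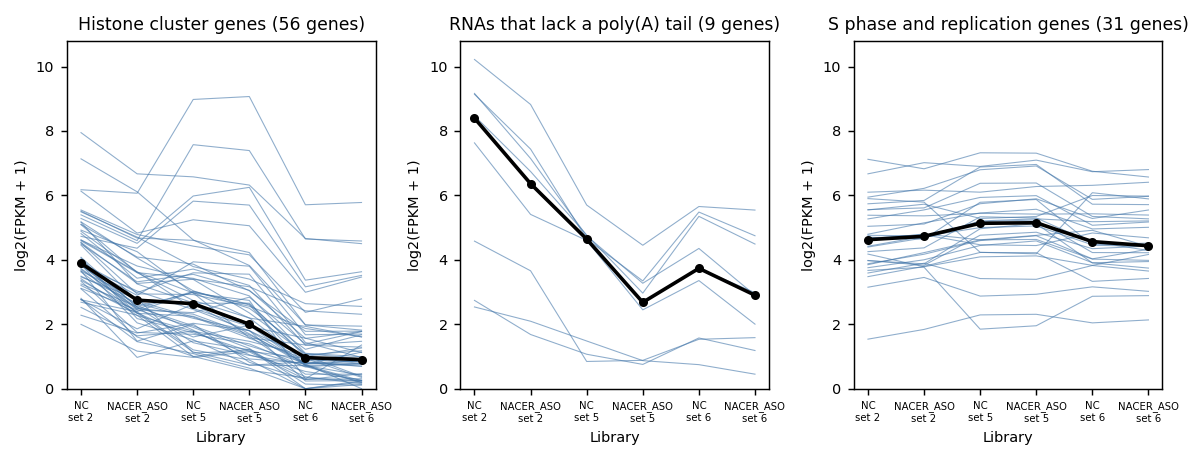
Level, as log2(FPKM + 1), of the tested histone genes (56), RNAs without a poly(A) tail (9) and S phase genes (31) in each library; each thin line joins the values of 1 gene and the black line joins the medians. The histone and the non-polyadenylated RNAs are highest in NC set 2, while the median of the S phase genes is highest in set 5.

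Factors that make, process or degrade histone mRNA gave calls in both directions between sets, in shares that can be read against those of all genes. SLBP, which binds the stem-loop, had 41.1, 26.1 and 48.5 FPKM in NC sets 2, 5 and 6 and 42.2, 26.7 and 47.2 FPKM in NACER_ASO. It was lower in set 5 than in set 2 by -0.64 ± 0.07 (log2, SE, adjusted p = 0.00044) and higher in set 6 than in set 5 by 0.83 ± 0.07 (adjusted p = 0.00019), and its difference between set 6 and set 2 did not pass the threshold. NPAT, the coactivator of histone gene transcription, had 5.72, 3.10 and 4.70 FPKM in NC and 5.90, 3.44 and 4.52 FPKM in NACER_ASO, also lowest in set 5. CASP8AP2 (FLASH), needed for histone 3′ end processing, was between 5.46 and 7.18 FPKM in all 6 libraries and passed in no contrast. Over the 19 genes of processing and decay, 3 were higher and 9 lower in set 5 against set 2 (23.5% and 46.8% of all genes), 3 were higher and 1 lower in set 6 against set 2 (20.9% and 27.3%), and 9 were higher and 3 lower in set 6 against set 5 (40.6% and 23.8%). The first and last of these are near the background. LSM10, a part of the U7 snRNP, was higher in set 6 than in set 2 by 0.82 ± 0.10 (adjusted p = 0.0023), as was SYMPK, the scaffold of the cleavage complex, by 0.30 ± 0.08 (adjusted p = 0.022), and MIF4GD, which binds SLBP in translation, was lower by -0.58 ± 0.15 (adjusted p = 0.021). In NACER_ASO against NC, 0 of the 19 passed, and SRRT, MIF4GD and CSTF2 had the smallest p.

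The replication-independent histone variants, whose mRNAs end in a poly(A) tail in most cases, were called lower in most cases in set 6 against set 2, by less at the median than the cluster genes. Of 12 in the table, 10 were tested. In set 6 against set 2, 9 were lower (27.3% of all genes) and 0 higher, with a median of -0.55 (log2) beside -2.39 for the cluster genes. H2AFX, which encodes the variant phosphorylated at DNA breaks and is known to give both kinds of mRNA end, had 211, 69.7 and 30.1 FPKM in NC sets 2, 5 and 6 and 139, 76.4 and 40.6 FPKM in NACER_ASO, a difference of -2.26 ± 0.23 (SE, adjusted p = 0.0013) in set 6 against set 2. H2AFJ was lower by -1.39 ± 0.13 (adjusted p = 0.0011) and H1F0, the linker histone of resting cells, by -0.61 ± 0.07 (adjusted p = 0.0018). In set 5 against set 2, 1 was higher and 5 lower (23.5% and 46.8% of all genes). In set 6 against set 5, 0 were higher and 5 lower (40.6% and 23.8%). Against NC 0 passed, with CENPA, H2AFV and H1FX at the smallest p.

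Chaperones and enzymes that handle new histones gave counts near those of all genes. Of 18 tested, 5 were higher and 7 lower in set 5 against set 2 (23.5% and 46.8% of all genes), 4 and 4 in set 6 against set 2 (20.9% and 27.3%), and 7 and 3 in set 6 against set 5 (40.6% and 23.8%). HAT1, which acetylates new H4, had 131, 61.6 and 201 FPKM in NC sets 2, 5 and 6 and 140, 64.5 and 181 FPKM in NACER_ASO, higher in set 6 than in set 2 by 0.49 ± 0.08 (log2, SE, adjusted p = 0.0059). CHAF1A, a subunit of the CAF-1 chaperone, was higher by 0.43 ± 0.10 (adjusted p = 0.014) and ASF1B, a chaperone of H3 and H4, by 0.35 ± 0.08 (adjusted p = 0.016). In NACER_ASO against NC, 0 of the 18 passed, and ASF1B, ATRX and CHAF1B had the smallest p.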

How the data were processed

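Poly(A)-selected RNA of 6 Huh7 libraries was sequenced. FPKM values per RefSeq transcript, with length and hg19 locus, were deposited by the authors, per the file headers. The submitters' processing notes name hg19 and the tools StringTie 1.3.3b, Bowtie2 2.2.6 and FastQC 0.11.5; what each did, its settings and any use of strand are not given in the sources. RNA was prepared with Trizol and libraries with a TruSeq Stranded mRNA kit, per the labels' protocols. An FPKM value shows abundance relative to the rest of its library and divides reads among copies and isoforms by estimate. No whole reads could be recovered from the low values (25.8% to 39.9% within 2% of a whole multiple of the commonest step), so no count model was fitted. The depth of the libraries is therefore unknown, and no precision is derived from it.

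Symbol sums were kept where 3 or more libraries reached 1 FPKM (13576 genes) and analysed as log2(FPKM + 1) with limma 3.58.1 in R 4.3.3, two-sided with a mean-variance trend and Benjamini-Hochberg adjustment over all genes at 0.05. This scale understates changes of low genes. NACER_ASO against NC had group as the only term; set contrasts had set and group. The set numbers pair the libraries: deviations from the group means correlated at 0.90, 0.97 and 0.90 within sets 2, 5 and 6, and 6 of 6 libraries correlated best with their own set, so a fit with set as a block is given where it bears on a call. The limma fits were tested on simulated data. The members, gene lists and tests were chosen with earlier results of these data known. Any tested member could be named, with the 5 highest untested ones; in each list the 3 genes with the smallest p in NACER_ASO against NC and in set 6 against set 2 were named, with SLBP, NPAT and CASP8AP2. Alternatives changed the pseudocount, filter, scaling, gene or transcript level, group term, block and libraries. Stem-loops were searched in GENCODE 29 transcripts and promoters in RefSeq (GRCh38.p14); no coordinates were carried between builds. Protein sequences were not used here.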

Additional observations from a re-analysis of the deposited data

How the results depend on the processing

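With the replicate block, NACER_ASO against NC called 0 genes, as without it. Over all genes the block called 3, 14 and 58 genes without set 2, 5 and 6 in turn, and 5 with median-of-ratios scaling; histone genes were called only without set 6 (9, all lower). Under a filter of 5 FPKM, at which 27 histone genes were tested, 14, 26 and 26 were lower in set 5 against 2, 6 against 2 and 6 against 5 (43.8%, 20.3% and 23.4% of all genes), 4 were higher in the first, with medians of -0.68 for the first and -1.87 for the last, and 4310 genes were called in set 6 against 2; transcripts tested singly gave 2272 calls there. Fewer histone genes were tested under the filter of 5 FPKM, so these counts cannot be set directly beside those of the main fits. Of these counts, 14 of 27 is near the share of all genes. Scaling gave a median of -0.81 in set 5 against 2. A pseudocount of 0.1 gave medians of -3.35 in set 6 against 2 and -2.06 in set 6 against 5. Without each library in turn the histone median ran from -1.29 to 0.14 for NACER_ASO against NC, from -1.45 to -0.58 for set 5 against 2, from -2.77 to -1.91 for set 6 against 2 and from -1.74 to -0.88 for set 6 against 5. In NACER_ASO against NC the same omissions gave -1.28 to 0.50 for HIST1H1C, -1.03 to 1.03 for HIST1H2BK, -1.96 to 0.62 for HIST1H3C, -1.43 to 0.21 for HIST2H2AA3 and -1.24 to 0.33 for HIST2H4A, in fits that leave the sets unbalanced. For set 5 against 2 they gave -1.26 to 0.18 for HIST1H2AJ and -1.05 to 0.39 for HIST2H4A, and for set 6 against 5, -0.94 to 0.22 for HIST2H3D. HIST1H2BK in NACER_ASO against NC turned to -0.054 under scaling, with or without the block, and to -0.019 and -0.0091 with the block and without set 5 or 6. HIST2H4A turned to 0.14 with the block and without set 2, and, in set 5 against 2, to 0.0034 under scaling. The ratio of NACER_ASO to NC in set 2 was 0.572 for the histone row over 1000 bases (HIST2H2BE), 0.863 for the 5 rows over 800 bases and 1.00 for the spliced rows, the last a split chosen after seeing the data; the rows in each class differ. The cause of these changes was not tested. Low histone values in set 6 limit what single genes can show, and depth is unknown.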
